A study of Mus musculus with 37 samples.

Results

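The microRNAs miR-23, miR-27 and miR-24 are processed from clusters in which 3 hairpins lie side by side in 1 transcript. Of the 459 TaqMan assays run on mouse stem and progenitor cells, 6 carried the names of members of these clusters: miR-23b, miR-23bN, miR-24, miR-27a, miR-27b and miR-27bN. They were chosen by name, although earlier results of these data were known. The suffix N marks a second assay under the same miRNA name. Each was followed through 37 runs in 12 populations as the threshold cycle (Ct), the PCR cycle at which the signal crossed a set level, so that a lower Ct stands for more RNA.

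Normal populations came from muscle, bone marrow and brain of mice labelled wildtype and, except where another strain is named, C57/Bl6. Muscle satellite cells (MuSC, 4 runs), the quiescent stem cells of muscle, were sorted from the tibialis anterior as CD34+ integrin-7+ cells lacking CD45, CD11b, CD31 and Sca1, and myoblasts (4 runs), their proliferating committed progeny, were taken from limb muscle. Long-term blood stem cells (LT-HSC, 4 runs) were sorted from marrow by a gate that included Endoglin+, Sca-1+ and Lin-. The Kit+ Sca-1+ Lin- gate (KSL), which enriches for short-term stem cells and multipotent progenitors and is therefore a mixture, gave 3 runs of the C57/Bl6 strain (KSL-B6) and 2 of the mixed strain 129Sv/J:C57Bl6 (KSL-Mixed). Neural stem and progenitor cells came from the subventricular zone and dentate gyrus, as primary isolates at birth (NSPC-P0, 3 runs), as neurospheres expanded in culture from those isolates (NSPC-P0-Exp, 3 runs) and as primary neurospheres of adult mice (NSPC-Adult, 3 runs, labelled C57/Bl6, C57/Bl7 and C57/Bl8). The abnormal populations were KSL cells of AML-ETO9a transgenic C57/Bl6 mice (KSL-ETO, 3 runs), KSL cells of mixed-strain mice with a triple knockout of the Rb family (KSL-RbTKO, 2 runs), and MLL-AF10+ leukaemia cells. The latter were Kit+ leukaemia stem cells from C57/Bl6 mice transduced with the oncogene (MLL-LSC, 3 runs) and the Kit- cells derived from them (MLL-Prog, 3 runs). Ages other than birth and adult, the promoter of the transgene, the means of deletion in the knockout and the cell number of each sample were not given in the labels, which state only that 20 to 1000 sorted cells were used.

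A miRNA recognises its targets mainly through its seed, bases 2 to 8 from the 5′ end, and lowers the translation and stability of the mRNAs it pairs with. miR-24 has been linked to cell cycle exit and muscle differentiation, miR-27 represses Pax3 in muscle progenitors and Runx1 in blood cells, and miR-23 represses glutaminase. The cluster holding miR-23a is a known target of the myeloid factor PU.1, and both clusters are abundant in vascular cells. In RefSeq (GRCm38.p6) the hairpins Mir23b, Mir27b and Mir24-1 lie on the plus strand of chromosome 13 from 63300484 to 63301275, inside the gene Aopep. Mir23a, Mir27a and Mir24-2 lie on the plus strand of chromosome 8 from 84208518 to 84208921, with no annotated gene spanning them.

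The mature sequences are given from RefSeq with the seed in capitals, because they show which cluster each assay name stands for. miR-27a-3p comes from chromosome 8 (84208727 to 84208747) and miR-27b-3p from chromosome 13 (63300760 to 63300780). miR-24-3p is the same molecule from either cluster, at 84208875 to 84208896 on chromosome 8 and at 63301251 to 63301272 on chromosome 13. miR-23a-3p (chromosome 8, 84208563 to 84208583) and miR-128-3p (chromosome 1, 128202404 to 128202424, and minus strand of chromosome 9, 112118644 to 112118664) are shown as relatives.
mmu-miR-27a-3p: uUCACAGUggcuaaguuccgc
mmu-miR-27b-3p: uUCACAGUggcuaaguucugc
mmu-miR-24-3p: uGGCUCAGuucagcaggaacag
mmu-miR-23a-3p: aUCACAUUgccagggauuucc
mmu-miR-128-3p: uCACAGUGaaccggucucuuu
miR-27a and miR-27b share their seed and 20 of 21 bases, and differ by C19U, counted from the 5′ end of miR-27a. They therefore share the seed group UCACAGU while coming from different chromosomes, and whether either assay also reads the other molecule was not tested. miR-128 shares the run ucacagug with miR-27a, 8 bases starting at position 2 of miR-27a and position 1 of miR-128. A miR-24 assay cannot tell its 2 genes apart, whereas miR-27a reports by name on the chromosome 8 cluster and miR-27b, miR-27bN, miR-23b and miR-23bN on the chromosome 13 cluster.

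miR-24 was detected, at a Ct below 35, in all 37 runs, with Ct 20.4 to 29.1. miR-27bN was detected in 34 runs, miR-27b in 32, miR-27a in 31 and miR-23bN in 30. The first miR-23b assay was detected in 3 runs, at 33.9 in KSL-B6 1, 34.2 in KSL-ETO 1 and 34.8 in myoblast run 4, and stood at 40, the value for no amplification, in 22. The paired assays thus gave very different readings of the same named miRNA: miR-23bN reached Ct 25.3 where miR-23b did not go below 33.9. The miR-27b pair differed less. miR-27bN crossed earlier than miR-27b in every population in which both were always detected, with mean differences from -1.23 cycles in NSPC-Adult (SD 0.862, n = 3) to -4.18 in MuSC (SD 0.389, n = 2). miR-23b was too rarely detected to enter any test, so 5 assays were tested in each comparison below.

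**Figure D1:**
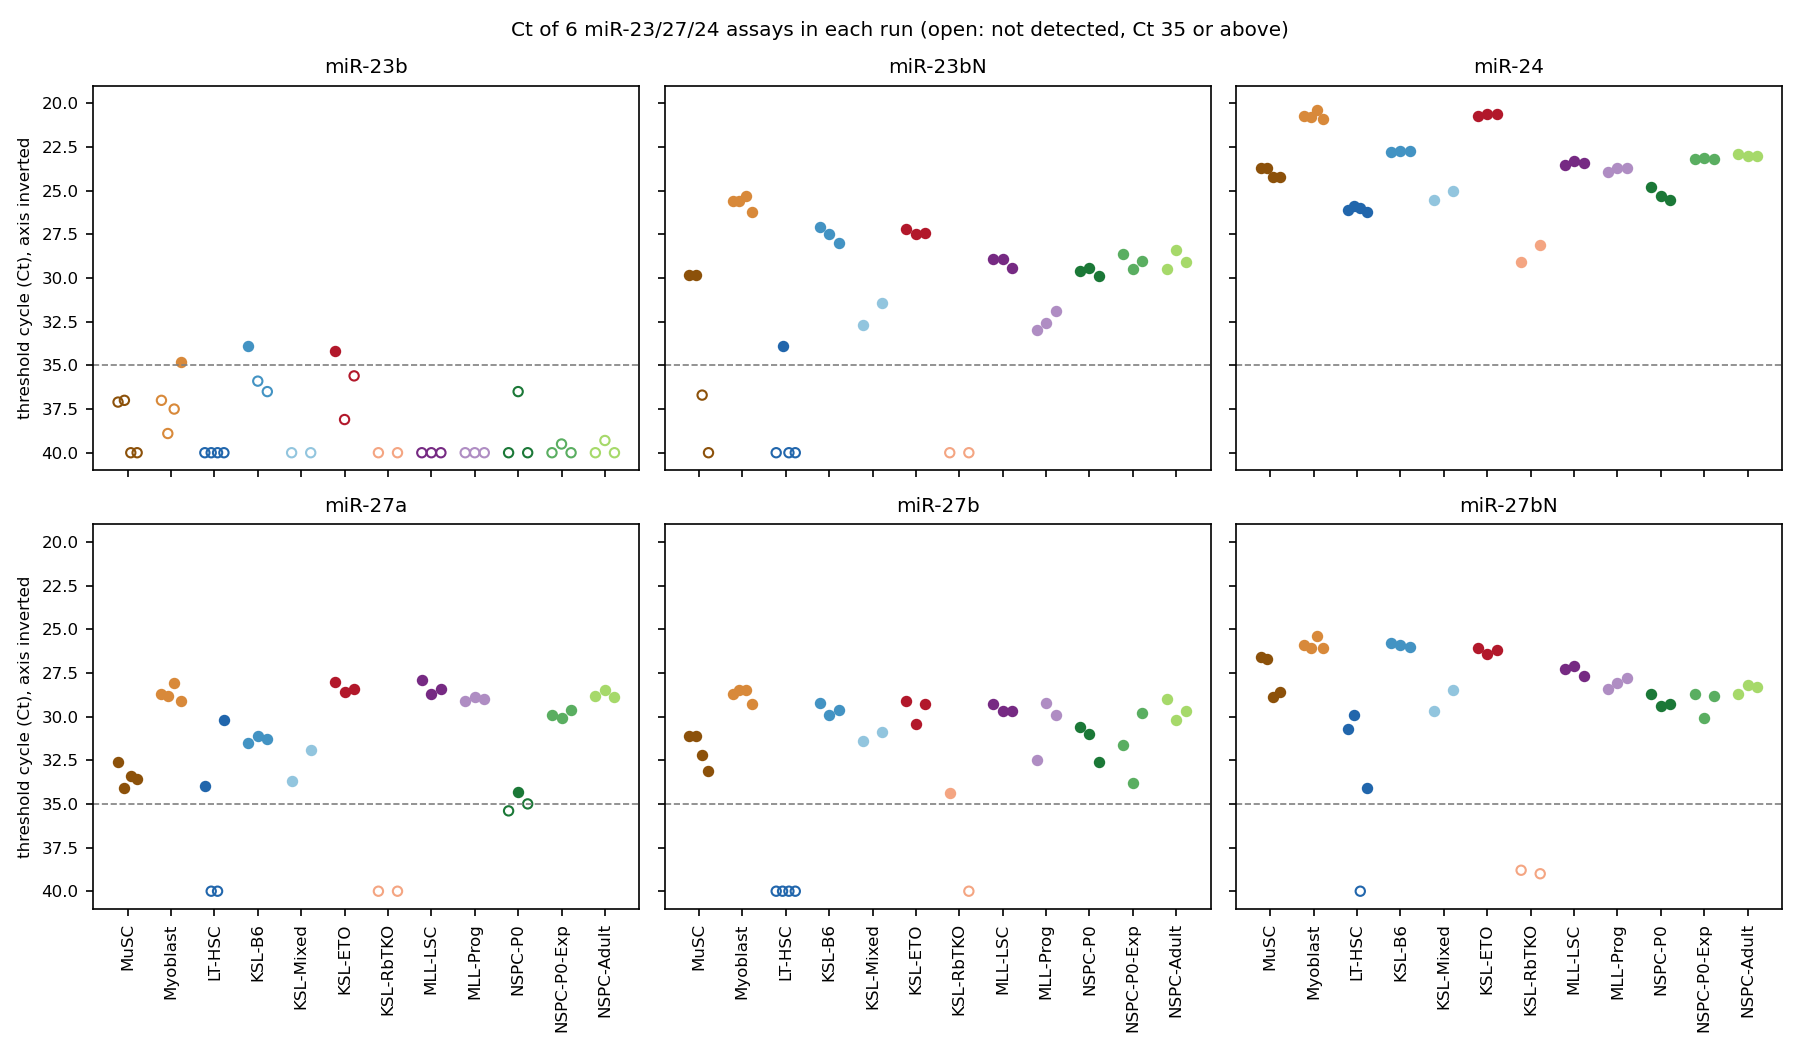
Ct of each of the 6 assays (panels) in each of the 37 runs, by population on the x axis, with the y axis inverted so that more RNA is higher. Filled points are detected runs, open points lie at Ct 35 or above, and the dashed line marks Ct 35; miR-24 lies above the line in all runs and miR-23b in 3.

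A run detected 61 to 143 assays, which limits how precisely it can be scaled: 61 and 65 in KSL-RbTKO, 65 to 90 in MuSC and 73 to 96 in LT-HSC, against 98 or more elsewhere. MuSC runs 1 and 2 were near-identical to each other, as were runs 3 and 4 (SD of Ct differences 0.156 and 0.211, against 0.324 to 1.09 in 35 pairs of runs within other groups), so each pair was averaged and counted as 1 sample. Among markers, the myeloid miR-223 stood at Ct 17.3 to 24.6 in every blood population and the muscle miR-206 at 20.7 to 22 in myoblasts. Of the 7 blood assays 2 were detected in no run of KSL-B6, KSL-Mixed, KSL-ETO, MLL-LSC or MLL-Prog, and 4 in no KSL-RbTKO run. Of the 3 muscle assays 2 were detected in no MuSC run, and 1 was detected in every run of MLL-LSC, MLL-Prog and NSPC-Adult. Of 4 neural marker assays, both of miR-124a and the one of mmu-miR-9 were not detected in any run of the 3 neural populations. The remaining assay, miR-128a, read 32.8 to 34.9 in NSPC-P0, 33.3 to 36.2 in NSPC-P0-Exp and 29.4 to 30.8 in NSPC-Adult. It read 29.8 to 30.4 in MLL-LSC and 29.3 to 29.8 in MLL-Prog, so no assay of this list set the neural populations apart. Whether replicates came from separate animals or cultures is not stated in the labels, and p-values measure only the spread between these samples, which may be technical. Undetected values were set to a common limit, so the spread of groups holding them can be understated, and with it standard errors and p-values.

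For tests, a sample's mean Ct over assays that no run of the comparison missed was set to 0, giving log2 levels (higher for more RNA), and values are log2 differences ± standard error from limma, called at a Benjamini-Hochberg adjusted p below 0.05 over all assays tested. One log2 unit stands for 1 cycle. In these bulk samples fewer cells of a type and less RNA per cell cannot be told apart. Over all 12 populations in 1 fit, all 5 tested members differed between populations (miR-24 F = 118, adjusted p = 4.03e-17, and miR-27b F = 5.22, adjusted p = 0.000559), against 79.1% of the 177 assays tested. At a detection limit of Ct 32 miR-27b was not called (F = 0.97, adjusted p = 0.685).

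On that common scale miR-24 was highest in KSL-ETO (5.62 ± 0.15, SD, n = 3) and myoblasts (5.54 ± 0.05, n = 4), whose ranges overlapped. MuSC (4.41 ± 0.26, n = 2) and NSPC-P0-Exp (3.17 ± 0.22, n = 3) followed, each apart from its neighbours. NSPC-Adult (2.46 ± 0.14), KSL-B6 (2.42 ± 0.15) and MLL-Prog (2.38 ± 0.03) overlapped, as did MLL-LSC (1.82 ± 0.17), LT-HSC (1.82 ± 0.52), NSPC-P0 (1.73 ± 0.23) and KSL-Mixed (1.72 ± 0.09). KSL-RbTKO was lowest (0.95 ± 0.39, n = 2). The order was thus one of a few steps rather than 12 separate levels, with a span of 4.67 between the highest and lowest means.

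miR-27a was also highest in KSL-ETO (-2.08 ± 0.25) and myoblasts (-2.44 ± 0.19), which overlapped, and then in MLL-Prog (-2.86 ± 0.07), MLL-LSC (-3.12 ± 0.53), NSPC-Adult (-3.30 ± 0.28) and NSPC-P0-Exp (-3.53 ± 0.11), each overlapping the next. All samples of KSL-B6, KSL-RbTKO and NSPC-P0 lay at the floor of -5.23, the lowest level measurable in every run. miR-23bN had a different order: myoblasts (0.56 ± 0.17), KSL-ETO (-1.11 ± 0.12), then KSL-B6 (-2.38 ± 0.37) level with NSPC-P0-Exp (-2.70 ± 0.35) and NSPC-P0 (-2.70 ± 0.23). LT-HSC, KSL-RbTKO and MLL-Prog lay wholly at the floor, although all 3 MLL-Prog runs detected miR-23bN, at Ct 31.9 to 33.0. miR-27bN was highest in MuSC (0.66 ± 1.39, n = 2) and myoblasts (0.36 ± 0.15), then KSL-ETO (0.02 ± 0.07) and KSL-B6 (-0.75 ± 0.04), and at the floor in KSL-RbTKO. KSL-B6 therefore stood near the top for the chromosome 13 assay miR-27bN and at the floor for the chromosome 8 assay miR-27a. That floor is not absence, as miR-27a was detected in all 3 KSL-B6 runs, at Ct 31.1 to 31.5. With no scaling KSL-B6 ranked 7 of the 12 populations for miR-27a. miR-27b was highest in myoblasts (-2.51 ± 0.24), and from KSL-ETO downward every population overlapped the next, with all LT-HSC samples at the floor.

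In the passage from satellite cells to myoblasts, miR-27a and miR-24 were higher and the miR-27b assays were not called. miR-27a stood at Ct 32.6, 34.1, 33.4 and 33.6 in the MuSC runs and at 28.7, 28.8, 28.1 and 29.1 in the myoblast runs. The groups did not overlap, and the scaled difference was 2.04 ± 0.14 (adjusted p = 0.000128, n = 4 and 2), a 4.10-fold rise. miR-24 went from Ct 23.7, 23.7, 24.2 and 24.2 to 20.7, 20.8, 20.4 and 20.9, also without overlap, but once scaled it rose by 0.54 ± 0.11 (adjusted p = 0.00941), less than the median of 1.11 over all 127 assays tested. Under quantile normalization miR-24 turned to -0.079, and without MuSC runs 3 and 4 its difference was 0.20 and not called. Quantile normalization also ended the miR-27a call (0.54, adjusted p = 0.260) and gave miR-27b (-0.92) and miR-27bN (-2.20) as lower. The 2 of 5 tested members called higher compare with 46.5% of all assays tested. Among markers of other cells, the summed level of 5 mesenchymal assays was 1.05 to 1.23 in myoblasts against -1.61 to -0.60 in MuSC, and of the 2 endothelial assays miR-126 was detected in all 4 myoblast runs and no MuSC run and miR-126* in neither. The part of these cells in the differences was not tested.

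miR-23bN split the satellite cells: Ct 29.8 and 29.8 in runs 1 and 2, 36.7 and 40 in runs 3 and 4, against 25.6, 25.6, 25.3 and 26.2 in myoblasts. Every myoblast run was lower in Ct, so more abundant, than every MuSC run, but the scaled difference of 4.01 ± 1.37 was not called (adjusted p = 0.0556), with the 2 MuSC samples far apart. It was called when either was left out, at 6.44 without runs 1 and 2, where 4 members were called, and 1.33 without runs 3 and 4. miR-27bN split the same way, at 26.6, 26.7, 28.9 and 28.6 in MuSC against 25.9, 26.1, 25.4 and 26.1 in myoblasts, and its difference was -0.89 ± 0.52 (adjusted p = 0.196). miR-27b stood at 31.1, 31.1, 32.2 and 33.1 against 28.7, 28.5, 28.5 and 29.3, a difference of 0.41 ± 0.38 (adjusted p = 0.393).

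In the passage from LT-HSC to KSL-B6 the chromosome 13 assays were higher and miR-27a was not. miR-23bN was undetected in 3 LT-HSC runs (Ct 40, 33.9, 40 and 40) and stood at 27.1, 27.5 and 28.0 in KSL-B6. The difference was at least 4.74 ± 0.26 (adjusted p = 1.29e-05, n = 3 and 4). miR-27b was at 40 in all 4 LT-HSC runs and at 29.2, 29.9 and 29.6 in KSL-B6, a rise of at least 2.85 ± 0.15 (adjusted p = 1.17e-05). For miR-27b all LT-HSC samples were set to the same level, so its standard error and p-value can be too small. With detection at Ct 32 that difference was 0.19 and not called (adjusted p = 0.193). miR-24 went from 26.1, 25.9, 26.0 and 26.2 to 22.8, 22.7 and 22.7 and rose by 1.31 ± 0.27 (adjusted p = 0.00619), close to the median of 1.14 over the 121 assays tested. Centred on the median assay, miR-24 was not called (0.57, adjusted p = 0.147).

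miR-27bN was uneven among the LT-HSC runs, at 30.7, 29.9, 40 and 34.1, against 25.8, 25.9 and 26.0 in KSL-B6. All KSL-B6 runs held more of it than any LT-HSC run, and it rose by at least 4.30 ± 1.37 (adjusted p = 0.0324). That call ended when LT-HSC 3, LT-HSC 4 or any of the 3 KSL-B6 runs was left out (3.41 to 5.31, highest adjusted p = 0.108). It also ended at Ct 38, with median centring, under quantile normalization, with all assays tested and with the replicate block (3.48 to 5.14). miR-27a was at 34.0, 40, 40 and 30.2 in LT-HSC and 31.5, 31.1 and 31.3 in KSL-B6. By Ct, LT-HSC 4 crossed earlier than any KSL-B6 run and the other LT-HSC runs later. Once scaled, LT-HSC ranged from -6.57 to -2.80, around the KSL-B6 range of -5.70 to -5.17. The difference was -0.08 ± 0.96 (adjusted p = 0.963). Of the 5 tested members 4 were called higher, against 49.6% of all assays called higher. The summed level of 7 blood marker assays was lower in KSL-B6 (4.35 to 4.87) than in LT-HSC (8.49 to 9.09). That of the 2 assays listed as endothelial, miR-126 and miR-126*, was higher, at 0.72 to 0.95 against -4.23 to -0.64. miR-126 rose by 5.60 ± 1.31 (adjusted p = 0.00979). At least 1 of these 2 was detected in every run of KSL-B6, KSL-Mixed, KSL-ETO and KSL-RbTKO. Whether endothelial cells gave this signal in marrow, and the part of either sum in these differences, was not tested.

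The difference between both steps was tested in 1 fit, as the blood step minus the muscle step. It was -3.01 ± 1.07 for miR-27a (adjusted p = 0.0345), and 1.36 ± 0.46 for miR-27b (adjusted p = 0.0281) and 4.31 ± 1.59 for miR-27bN (adjusted p = 0.0408), so that miR-27a went further up in muscle and the miR-27b assays in blood. The miR-27a call ended with no scaling (-2.50), median centring (-2.98), quantile normalization (-0.83) and no floor (-2.49), and at Ct 38 (-1.15). That of miR-27b ended at Ct 32 (0.031) and that of miR-27bN at Ct 38 (5.57). Among 149 assays 38.3% were called lower and 16.8% higher in this contrast, whose median was -0.74. The number of members called, 3, was 0 without KSL-B6 1 or without KSL-B6 3, and 1 without MuSC runs 1 and 2, KSL-B6 2 or any single myoblast run. miR-24 (0.08 ± 0.33) and miR-23bN (-0.25 ± 1.37) were not called.

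**Figure D2:**
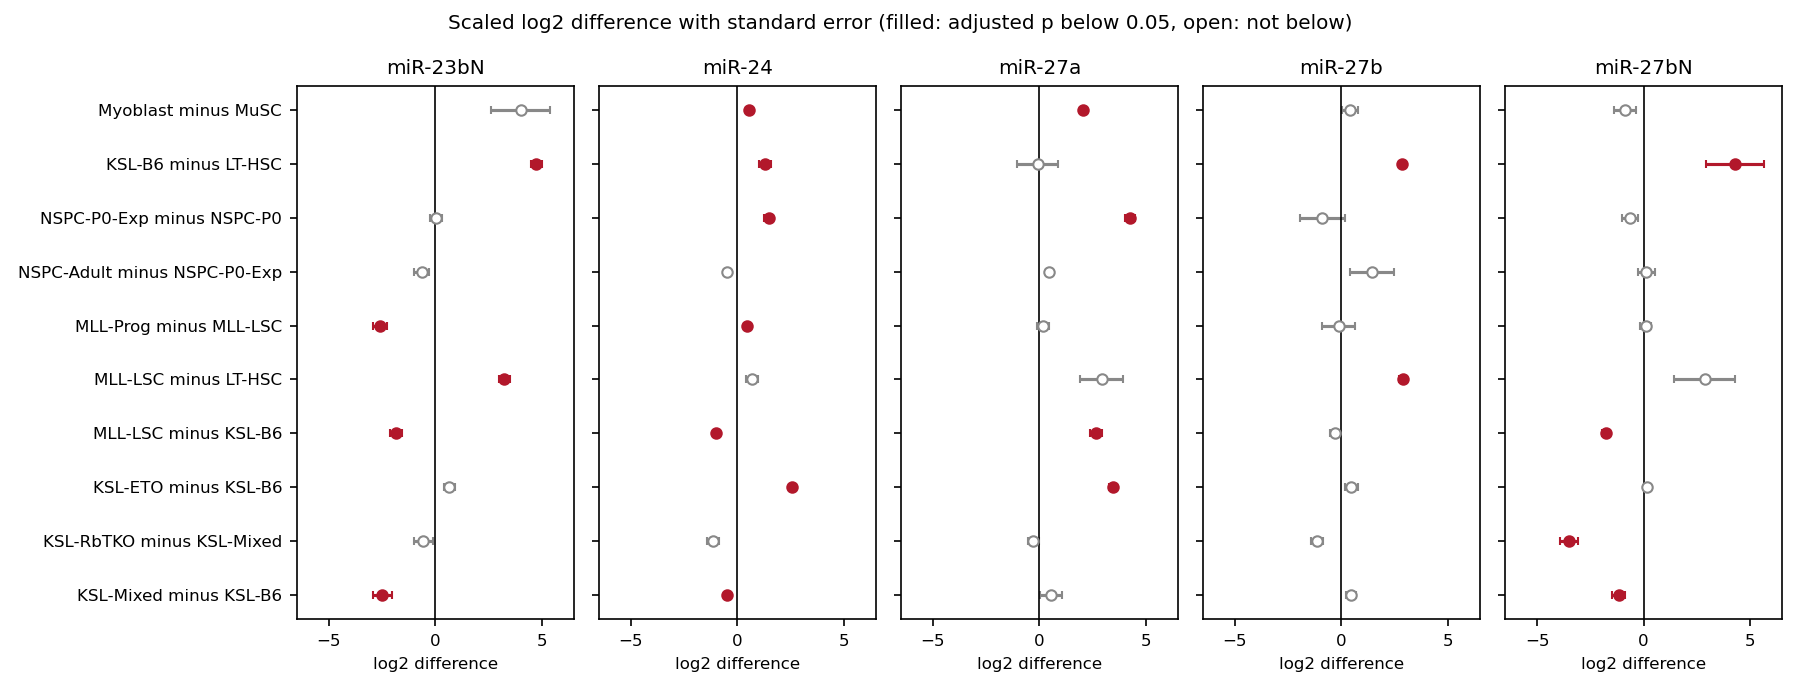
Scaled log2 difference (x axis, point, with standard error as bar) of the 5 tested assays (panels) in 10 comparisons between populations (y axis). Filled red points have an adjusted p below 0.05 and open grey points do not; miR-27a was called at 2.04 in myoblasts, 4.26 in expanded neural cells, 2.66 in MLL-LSC against KSL-B6 and 3.46 in KSL-ETO.

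After expansion of neonatal neural cells as neurospheres miR-27a and miR-24 were higher, while the chromosome 13 assays were not called. miR-27a was near or beyond the detection limit in the isolates (Ct 35.4, 34.3 and 35, with 1 of 3 detected) and at 29.9, 30.1 and 29.6 in the neurospheres. The difference was at least 4.26 ± 0.23 (adjusted p = 0.000167, n = 3 and 3), or 19.2-fold. miR-24 went from 24.8, 25.3 and 25.5 to 23.2, 23.1 and 23.2, a rise of 1.47 ± 0.20 (adjusted p = 0.00334). Neither pair of groups overlapped, and the median of all 126 assays tested was -0.23. These 2 of 5 members compare with 21.4% of all assays called higher.

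miR-23bN, in contrast, lay at 29.6, 29.4 and 29.9 before and 28.6, 29.5 and 29.0 after expansion, with overlapping ranges and a scaled difference of 0.04 ± 0.27 (adjusted p = 0.897). miR-27bN stood at 28.7, 29.4 and 29.3 against 28.7, 30.1 and 28.8 (-0.63 ± 0.38, adjusted p = 0.253), and miR-27b at 30.6, 31.0 and 32.6 against 31.6, 33.8 and 29.8 (-0.89 ± 1.07, adjusted p = 0.512). The isolates also carried markers of other cells: the summed level of both endothelial assays, miR-126 and miR-126*, stood at 3.60 to 3.77, against -2.62 to -0.07 after expansion, and that of the 7 blood assays at 1.51 to 1.67, against -2.42 to -0.66. The 13 epithelial assays summed to 2.35 to 5.85 and then to -1.53 to 1.5. In the isolates 9 of these 13 and 4 of the 7 blood assays were detected in no run, so few assays carried those sums. The part of such cells in the miR-27a and miR-24 rises was not tested.

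Between neonatal and adult neurospheres no member was called by limma, although 40.9% of 132 assays were. miR-24 read 22.9, 23.0 and 23.0 in NSPC-Adult, a difference of -0.47 ± 0.15 (adjusted p = 0.0560), and miR-27a read 28.8, 28.5 and 28.9, a difference of 0.46 ± 0.14 (adjusted p = 0.0526). Both had an unadjusted p below 0.05 (0.0254 and 0.0223). Without NSPC-P0-Exp 3 both were called, at -0.58 and 0.50, and without NSPC-Adult 3 miR-27a alone was, at 0.55. miR-24 was also called at Ct 32 (-0.57) and under quantile normalization (-0.88), and miR-27a with no scaling (1.13). miR-23bN (29.5, 28.4 and 29.1), miR-27bN (28.7, 28.2 and 28.3) and miR-27b (29.0, 30.2 and 29.7) differed from NSPC-P0-Exp by -0.64 ± 0.36, 0.13 ± 0.40 and 1.43 ± 1.03.

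Within the MLL-AF10 leukaemia, miR-23bN separated the Kit+ stem cell fraction from the Kit- cells. It read 28.9, 28.9 and 29.4 in MLL-LSC and 33.0, 32.6 and 31.9 in MLL-Prog, with no overlap. The difference was -2.59 ± 0.34 (adjusted p = 0.00194, n = 3 and 3), a 6.03-fold fall, and it was called whichever run was left out. By position its neighbour in the cluster is miR-27b, yet miR-27bN stood at 27.3, 27.1 and 27.7 against 28.4, 28.1 and 27.8, a scaled difference of 0.11 ± 0.26 (adjusted p = 0.738), although it was called with median centring (0.57). miR-27b (29.3, 29.7 and 29.7 against 32.5, 29.2 and 29.9) differed by -0.13 ± 0.78 and miR-27a (27.9, 28.7 and 28.4 against 29.1, 28.9 and 29.0) by 0.17 ± 0.28, and neither was called.

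miR-24 read 23.5, 23.3 and 23.4 in MLL-LSC and 23.9, 23.7 and 23.7 in MLL-Prog. After scaling it was called higher in MLL-Prog, by 0.47 ± 0.14 (adjusted p = 0.0328), but its sign followed the scaling and it was -0.37 with none. The call also ended when any MLL-LSC run, MLL-Prog 1 or MLL-Prog 3 was left out (0.41 to 0.54). miR-126 fell between the fractions by 4.35 ± 0.55 (adjusted p = 0.00179), and its part was not tested. Of 5 members 1 was lower, against 29.5% of 122 assays, and 1 higher, against 27.9%.

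The leukaemia stem cells were also set against both normal marrow populations. These comparisons share the MLL-LSC runs with each other and with the one above, and the LT-HSC and KSL-B6 runs with the blood step, so their values are given side by side. Against KSL-B6, MLL-LSC held more miR-27a (Ct 27.9, 28.7 and 28.4 against 31.5, 31.1 and 31.3), by 2.66 ± 0.29 (adjusted p = 0.000485, n = 3 and 3), or 6.30-fold. It held less miR-27bN (-1.78 ± 0.18, adjusted p = 0.000381), less miR-23bN (-1.84 ± 0.29, adjusted p = 0.00201) and less miR-24 (-0.98 ± 0.12, adjusted p = 0.000791). The runs of the 4 assays did not overlap between the groups, and the 4 calls held whichever run was left out. With median centring miR-24 was not called (-0.47, adjusted p = 0.147). miR-27b differed by -0.31 ± 0.22 and was not called. Members were called higher in 1 case and lower in 3 of 5, against 34.8% and 31.1% of 135 assays, with a median of 0.16. The endothelial sum was also lower in MLL-LSC, at -4.23 to -2.94 against 0.72 to 0.95, and its part was not tested.

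Against LT-HSC the same leukaemia stem cells held more miR-23bN, by at least 3.25 ± 0.24 (adjusted p = 0.000104, n = 3 and 4). They also held more miR-27b, by at least 2.88 ± 0.16 (adjusted p = 3.13e-05). Neither was called at Ct 32 (0.38 and 0.081). These 2 of 5 compare with 39.8% of 123 assays called higher, with a median of 0.80. miR-27a differed by 2.93 ± 1.01 (adjusted p = 0.0538). With the replicate number as a block, in which LT-HSC 4 has no partner, miR-27a was called at 3.78 ± 0.08 (adjusted p = 0.000938), and leaving out LT-HSC 4, at Ct 30.2 the LT-HSC run with most miR-27a, gave 3.69. miR-27bN (2.88 ± 1.43, adjusted p = 0.144) and miR-24 (0.70 ± 0.28, adjusted p = 0.0837) were not called, and miR-24 was -0.45 under quantile normalization. Against the blood marker sum of 7.72 to 7.86 in MLL-LSC stood 8.49 to 9.09 in LT-HSC and 4.35 to 4.87 in KSL-B6, and its part was not tested.

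AML-ETO9a is a splice form of the RUNX1-RUNX1T1 fusion of acute myeloid leukaemia. In KSL cells of the transgenic mice miR-27a and miR-24 were much higher than in KSL-B6, and the chromosome 13 assays were not called. miR-27a read 28.0, 28.6 and 28.4 against 31.5, 31.1 and 31.3, and rose by 3.46 ± 0.18 (adjusted p = 1.21e-05, n = 3 and 3), or 11.0-fold. miR-24 read 20.7, 20.6 and 20.6 against 22.8, 22.7 and 22.7, and rose by 2.59 ± 0.16 (adjusted p = 2.51e-05), or 6.02-fold. Neither overlapped, and both were called in every alternative fit in which a run was left out. The median over 125 assays was -0.01, and 2 of 5 members compare with 32% of assays called higher.

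miR-27bN stood at 26.1, 26.4 and 26.2 in KSL-ETO and 25.8, 25.9 and 26.0 in KSL-B6, so each KSL-ETO run crossed later than each KSL-B6 run, and the scaled difference was 0.16 ± 0.13 (adjusted p = 0.316). miR-27b (29.1, 30.4 and 29.3 against 29.2, 29.9 and 29.6) differed by 0.46 ± 0.31 (adjusted p = 0.224) and miR-23bN (27.2, 27.5 and 27.4 against 27.1, 27.5 and 28.0) by 0.66 ± 0.27 (adjusted p = 0.0704). Quantile normalization called all 5 members higher, and median centring also called miR-23bN (0.87). The summed blood markers were lower in KSL-ETO, at 2.99 to 3.19 against 4.35 to 4.87, as was the endothelial sum, at -0.28 to 0.045 against 0.72 to 0.95, and their part in the rises was not tested.

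The Rb family restrains entry into the cell cycle. KSL cells without it held less miR-27bN than wildtype KSL cells of the same mixed strain, with Ct 38.8 and 39.0 against 29.7 and 28.5. The knockout runs missed the assay, so the difference of -3.50 ± 0.41 or lower (adjusted p = 0.0347, n = 2 and 2) is a bound, and it was no longer called without either knockout run. The call also ended at Ct 32 (-0.85), with median centring (-2.77) and with all assays tested. Without KSL-Mixed 4, 3 members were called. miR-24 was the only member detected in both knockout runs, at 29.1 and 28.1 against 25.5 and 25.0, and differed by -1.14 ± 0.29 (adjusted p = 0.0896). miR-23bN and miR-27a were at 40 in both knockout runs, and miR-27b at 34.4 and 40. The differences of miR-23bN (-0.55 ± 0.46 or lower) and miR-27b (-1.15 ± 0.29 or lower) were not called. That of miR-27a (-0.28 ± 0.25), for which KSL-Mixed 4 lay at the floor too, was not called either and is no bound. The knockout runs detected 61 and 65 assays against 98 and 102 in KSL-Mixed, and 1 of 5 members lower compares with 19.1% of 94 assays.

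The wildtype KSL cells of both strains differed too. KSL-Mixed read 32.7 and 31.4 for miR-23bN, 25.5 and 25.0 for miR-24, and 29.7 and 28.5 for miR-27bN, all later than any KSL-B6 run. The differences were -2.48 ± 0.44 (adjusted p = 0.0143, n = 2 and 3), -0.48 ± 0.12 (adjusted p = 0.0362) and -1.16 ± 0.31 (adjusted p = 0.0402). With median centring miR-24 differed by 0 and miR-27bN by -0.68 (adjusted p = 0.0958), neither called, and miR-27b was called higher (0.93), as it was under quantile normalization (0.91). Strain and any difference in cell number or handling between these sorts cannot be told apart. Without KSL-B6 1 or KSL-B6 2 no member was called. Without KSL-B6 3 the 1 call was miR-23bN, and without KSL-Mixed 4 it was miR-27a, higher by 1.38. miR-27a (33.7 and 31.9) and miR-27b (31.4 and 30.9) were not called, at 0.54 ± 0.50 and 0.46 ± 0.22. Of 5 members 3 were lower, against 31.3% of 115 assays.

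Muscle, blood and brain were each compared with the average of the remaining normal tissues, so the 3 differences of an assay sum to 0. All 5 members were higher in muscle, from 1.29 ± 0.40 for miR-27a (adjusted p = 0.0109) through 2.66 ± 0.13 for miR-24 (adjusted p = 2.74e-11) to 3.08 ± 0.60 for miR-27bN (adjusted p = 0.000275), against 30.8% of 169 assays called higher there. The muscle value averages unlike groups: on the common scale MuSC held less miR-27a (-5.07) than either neurosphere group, and its mean of miR-23bN (-3.37) was below those of KSL-B6, NSPC-P0 and NSPC-P0-Exp. Leaving out single samples gave 0.72 to 3.38 for miR-23bN. With no scaling miR-27a and miR-23bN were not called in muscle. All 5 were lower in blood, from -1.38 ± 0.56 for miR-27bN (adjusted p = 0.0430) to -1.97 ± 0.44 for miR-23bN (adjusted p = 0.000932), against 41.4%. The blood value averages unlike groups too. On the common scale KSL-B6 held more miR-27bN (-0.75) than NSPC-P0 (-2.20), NSPC-P0-Exp (-2.86) and NSPC-Adult (-2.97), while the LT-HSC mean was lower (-3.65). The KSL-B6 mean of miR-23bN (-2.38) was also above those of the neural groups, overlapping NSPC-P0 and NSPC-P0-Exp, with LT-HSC at the floor. For miR-24, miR-27a and miR-27b KSL-B6 was not above every neural group. In blood miR-27bN was called in 4 of the 22 fits that each left out 1 sample (-1.76 to -1.0, highest adjusted p = 0.107), and miR-27a was not called there at Ct 32 (-0.09) or under quantile normalization (-1.26). Brain was lower for miR-24 (-1.12 ± 0.12, adjusted p = 2.81e-07) and miR-27bN (-1.70 ± 0.52, adjusted p = 0.00952), against 28.4%.

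The Ct difference between members within a run does not depend on how runs are scaled. With 2 to 4 samples a group, none of these comparisons could reach 0.05 in a two-sided exact permutation test, so the differences are given as values. miR-27a crossed later than miR-27b in KSL-B6, by 1.2 to 2.3 cycles. It crossed earlier in KSL-ETO, with differences of -1.8 to -0.9 cycles, and in MLL-LSC, with -1.4 to -1.0. The sign of the difference therefore changed between KSL-B6 and both KSL-ETO and MLL-LSC, with no overlap of runs. In muscle it was 1.55 in MuSC (SD 0.990, n = 2) and -0.075 in myoblasts (SD 0.299, n = 4).

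**Figure D3:**
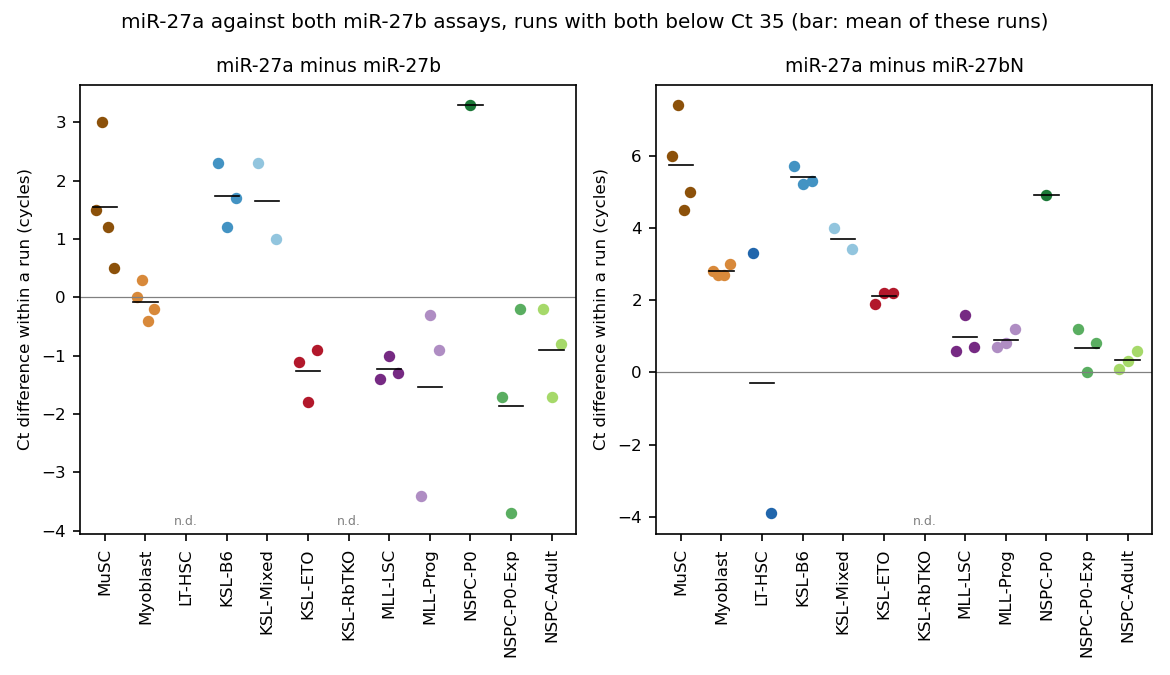
Ct of miR-27a minus Ct of miR-27b (left) and of miR-27bN (right) in the same run, by population, in cycles; values below 0 mean that miR-27a crossed first. Points are runs with both assays below Ct 35, bars are their means, and n.d. marks populations with no such run; KSL-ETO lies below KSL-B6 in both panels without overlap.

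The miR-27bN assay, set against miR-27a after the spread of miR-27b had been seen, varied less between replicates (median SD 0.265 against 0.755 cycles). miR-27a trailed miR-27bN by 5.40 cycles in KSL-B6 (SD 0.265) and 5.73 in MuSC (SD 1.38), by 3.70 in KSL-Mixed (SD 0.424), and by 2.80 in myoblasts (SD 0.141) and 2.10 in KSL-ETO (SD 0.173). In both leukaemia fractions the gap was 0.967 (MLL-LSC, SD 0.551) and 0.900 (MLL-Prog, SD 0.265), and in neurospheres 0.667 (NSPC-P0-Exp, SD 0.611) and 0.333 (NSPC-Adult, SD 0.252). The balance of the 2 miR-27 assays thus moved over a range of 5.39 cycles, with KSL-B6 and satellite cells at one end and neurospheres and MLL-AF10 cells at the other. LT-HSC had both assays in only 2 runs, with gaps of 3.3 and -3.9 cycles.

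Set against miR-24 in the same run, miR-27a trailed by 4.93 cycles in MLL-LSC (SD 0.503) and 5.23 in MLL-Prog (SD 0.058), and by 8.57 in KSL-B6 (SD 0.153) and 9.48 in MuSC (SD 0.247). KSL-ETO (7.70, SD 0.361) lay between them, close to KSL-B6. miR-23bN trailed miR-24 by 4.43 to 6.80 cycles in 8 populations and by 8.73 in MLL-Prog (SD 0.473). miR-23bN and miR-27bN, named for neighbouring hairpins, differed by -0.200 cycles in myoblasts (SD 0.258), 1.70 in MLL-LSC (SD 0.10) and 4.40 in MLL-Prog (SD 0.265), so the 2 assays of the chromosome 13 cluster did not keep a fixed ratio.

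**Figure D4:**
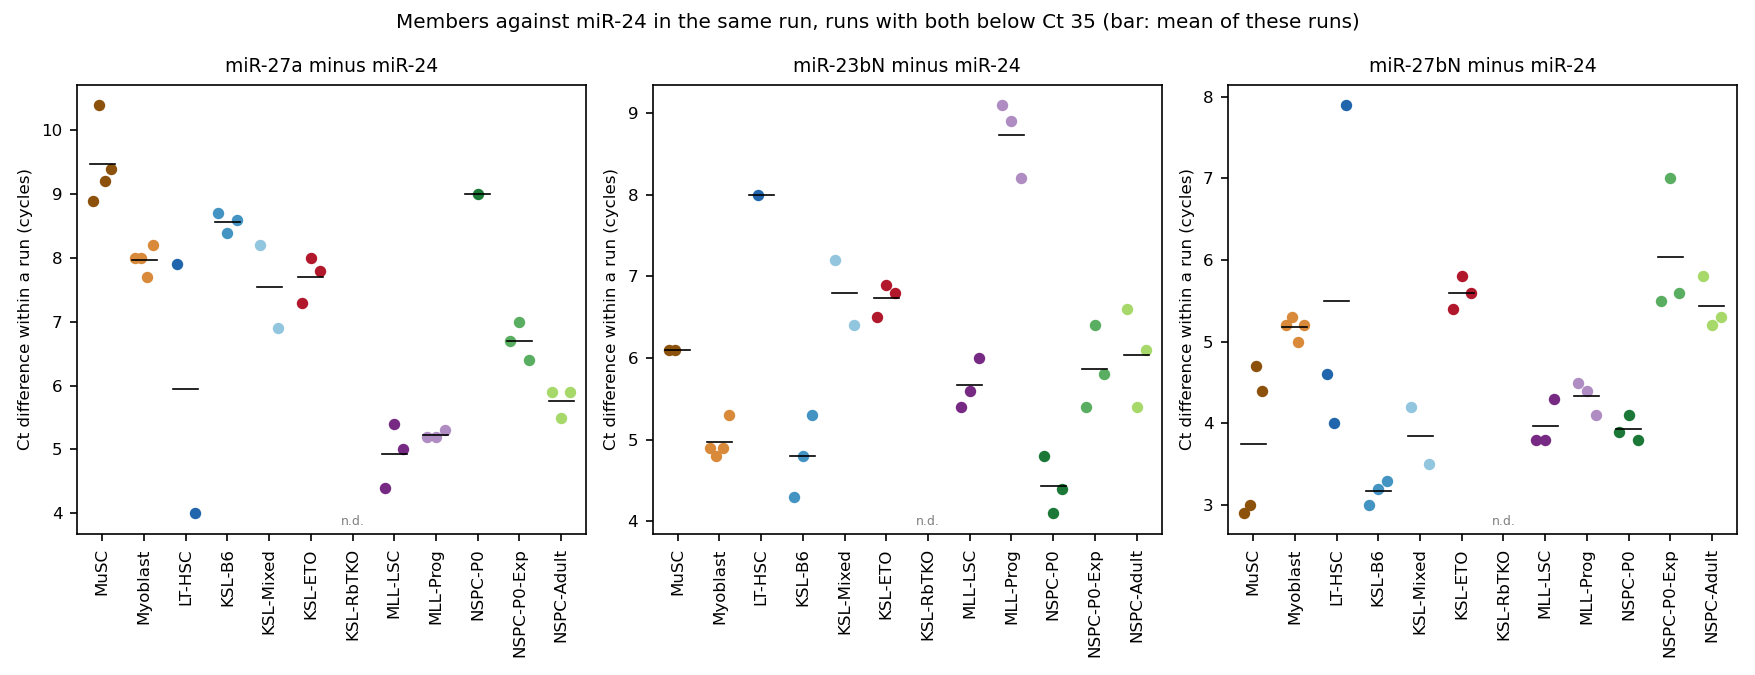
Ct of miR-27a, miR-23bN and miR-27bN minus Ct of miR-24 in the same run (y axis, cycles), by population. Points are runs with both assays below Ct 35, bars are their means, and n.d. marks populations with none; all MLL-Prog runs lie highest in the miR-23bN panel, at 8.2 to 9.1 cycles, and MLL-LSC and MLL-Prog have the lowest means in the miR-27a panel.

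Over the 12 population means, which share the scaling and the floor, the levels of miR-24 and miR-27b had a Pearson correlation of 0.85, miR-27b and miR-27bN 0.84, miR-24 and miR-27bN 0.81, and miR-23bN and miR-24 0.80. Those of miR-27a were lower, at 0.60 with miR-24, 0.54 with miR-27b, 0.47 with miR-23bN and 0.32 with miR-27bN. Among 95 other assays, the pattern of miR-27a was most like those of miR-186 (0.78), miR-210N (0.74) and miR-423 (0.72). The patterns of the other 4 members were most like miR-29a or hsa-miR-425: miR-29a for miR-27b (0.86), miR-23bN (0.83) and miR-27bN (0.69), and hsa-miR-425 for miR-24 (0.83). These are descriptions over 12 points with no test.

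Of the relatives by cluster or seed, the panel held miR-23a and miR-128a. miR-23a, the chromosome 8 partner of miR-27a, was at 40 in all 37 runs, including those in which miR-27a was high. As no run gave a signal, a missing miRNA and an assay that does not work cannot be told apart. miR-128a, a miRNA abundant in brain, was detected in 27 runs. It was called higher in NSPC-Adult than NSPC-P0-Exp (3.33 ± 0.60, adjusted p = 0.00937) and in MLL-LSC than KSL-B6 (3.70 ± 0.39, adjusted p = 0.000453). Smaller calls were higher in MLL-Prog than MLL-LSC (1.34 ± 0.19), and in KSL-Mixed (1.25 ± 0.12) and KSL-ETO (0.83 ± 0.30, adjusted p = 0.0495) than KSL-B6. The assay miR-189, an older name for the other strand of Mir24-1 in RefSeq and chosen after its values were seen, was detected in 4 runs, at 33.0 and 33.1 in NSPC-P0-Exp 1 and 2, 34.8 in NSPC-Adult 1 and 34.0 in KSL-ETO 2. A list of miRNAs known from vessels, stroma and growing cells was drawn up with earlier results of these data known. It held 11 assays, with miR-31 and hsa-miR-31 counted separately. Of these, 6 of 7 tested were higher in myoblasts, 6 of 7 in KSL-B6 against LT-HSC, and 7 of 7 lower in MLL-LSC than in KSL-B6, against 46.5%, 49.6% and 31.1% of all assays, with medians of 3.94, 2.48 and -4.66 against 1.11, 1.14 and 0.16. In NSPC-P0-Exp against NSPC-P0 4 of 7 were higher and 2 lower (21.4% and 25.4% of all assays), and in MLL-LSC against LT-HSC 2 of 5 were higher and 1 lower (39.8% and 13.8%). Lower were also 4 of 7 in KSL-Mixed (31.3% of all assays), 2 of 5 in KSL-RbTKO (19.1%) and 1 of 4 in MLL-Prog (29.5%). In NSPC-Adult 1 of 6 was lower, against 40.9% of all assays called in either direction. None was higher in any of these. In KSL-ETO 3 of 8 were higher, led by hsa-miR-31 (6.09 ± 0.15) and miR-31 (5.56 ± 0.17), and 4 lower, led by mmu-miR-221 (-7.98 ± 0.65), a regulator of Kit, against 32% and 38.4% of all assays.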

How the data were processed

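Sorted cells were assayed by TaqMan PCR after a multiplex reverse transcription, per the labels' protocols. The deposited values are other than counts: threshold cycles (Ct) per assay and run, with 40 where no amplification was recorded. Which software and threshold gave them, and whether they were normalized, is not given in the sources used here. A nameless value of 38.5 in KSL-RbTKO 2 was left out. Each run held 459 assays, of which 61 to 143 were detected (Ct below 35), and this number limits the precision. The 6 assays and all lists were chosen with earlier results of these data known.

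Groups follow the labels, with wildtype KSL divided by strain. Near-identical MuSC runs were averaged in pairs, which left 35 samples. For each comparison Ct was capped at 35, the mean of each sample over assays that no run of the comparison missed was set to 0, and levels below the lowest level common to all samples were set to that floor, so differences of weakly detected assays are understated. Samples at the floor show no spread, so standard errors and p-values can be too small where a group lies there. Tested were assays detected throughout at least 1 group. The test was limma's (3.58.1, R 4.3.3, two-sided, Benjamini-Hochberg over all assays tested, 0.05). The method was tested on simulated data in which only well detected assays were changed, so that test does not cover undetected or weakly detected members. Named beyond the members were, by rule, the 3 assays with the most similar population means, 2 lists and cell type markers. Marker sums are log2 of the summed linear levels of a list.

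Alternatives tried were detection at Ct 32 or 38, no scaling, median centring, quantile normalization, no floor, all assays tested, a block for the replicate number and leaving out each sample. Where a group was left with 1 sample, it was assumed to vary like the other group. Residuals of same-numbered samples correlated in every pair (0.148 to 0.232) for MLL-LSC against LT-HSC alone, 2 of 3 best with their own number. The main fit had no pairs there either, and the block fit is given beside it. These weak correlations do not establish pairs, which the labels do not state. Within-run differences using miR-27bN or miR-23bN were added after the data were seen. Mature sequences and positions are RefSeq's, GRCm38.p6, matched by miRNA name.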

Additional observations from a re-analysis of the deposited data

Results flagged for a closer look

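The Ct of miR-23bN in LT-HSC 2, at 33.9, lay far from the other 3 LT-HSC runs, which were all at 40. Because those 3 runs were tied at the value for no amplification, any other run below 40 would have been set apart by this measure. The flag therefore says nothing about how unusual the value was. The difference between KSL-B6 and LT-HSC for this assay was called whichever run was left out.

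The step from stem cell to progenitor differed between blood and muscle, by the test of the difference itself in limma, for miR-27a (-3.01, adjusted p = 0.0345), miR-27b (1.36, adjusted p = 0.0281) and miR-27bN (4.31, adjusted p = 0.0408), where the sign is that of the blood step minus the muscle step. Leaving out single samples gave -3.44 to -2.20 for miR-27a, 0.59 to 2.27 for miR-27b and 3.26 to 5.69 for miR-27bN, with the call kept in 5, 9 and 3 of 13 such fits.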

How the results depend on the processing

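Of the changes of sign, 11 involved a fit that called the value. In myoblasts against MuSC, miR-27bN was 1.83 with no scaling, and under quantile normalization miR-24 was -0.079 and miR-27b -0.92. In MLL-Prog against MLL-LSC miR-24 was -0.37 with no scaling, and in MLL-LSC against LT-HSC it was -0.45 under quantile normalization. In KSL-Mixed against KSL-B6 miR-27a was -1.50 and miR-27b -1.58 with no scaling. In brain, miR-23bN was -1.15 and miR-27a -0.19 at a detection limit of Ct 32, and miR-23bN was -0.75 without MuSC replicate 2 (runs 3 and 4), where its difference between steps was 2.52. The causes were not tested.

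The other 49 changes of sign were between fits that did not call the value. With no scaling they were miR-27a in KSL-B6 against LT-HSC (2.25), miR-23bN (0.033) and miR-24 (0.20) in NSPC-Adult, miR-27a (-0.67) and miR-27bN (-0.73) in MLL-Prog, miR-27b (-0.033) and miR-27bN (-0.33) in KSL-ETO, miR-27b in brain (0.38) and miR-23bN for the difference between steps (0.47). With median centring they were miR-23bN in NSPC-P0-Exp (-0.47), miR-27b in MLL-Prog (0.33), miR-24 in MLL-LSC against LT-HSC (-0.071) and miR-27b in MLL-LSC against KSL-B6 (0.20). Under quantile normalization they were miR-27b in MLL-Prog (0.24), miR-27a in brain (-0.59) and miR-23bN between steps (0.49). Without the floor they were miR-27a in KSL-B6 against LT-HSC (0.24), in KSL-RbTKO (0.010) and in brain (-0.087), and miR-23bN between steps (0.48). At Ct 38 they were miR-27a in KSL-B6 against LT-HSC (1.46) and brain (-0.053), miR-27b in brain (0.061) and miR-23bN between steps (1.12), at Ct 32 miR-27b in MLL-Prog (0.21), and with the replicate block miR-27a in KSL-B6 against LT-HSC (0.78). Leaving out single samples gave -0.46 to 0.61 for miR-27a in KSL-B6 against LT-HSC, -0.12 to 0.39 for miR-23bN and -1.77 to 0.25 for miR-27b in NSPC-P0-Exp, -0.34 to 0.38 for miR-27bN in NSPC-Adult, -0.049 to 0.47, -0.69 to 0.81 and -0.13 to 0.22 for miR-27a, miR-27b and miR-27bN in MLL-Prog, and -0.17 to 1.38 for miR-27a in KSL-Mixed. It gave -0.087 to 0.091 for miR-23bN in brain (MuSC aside), -0.11 to 0.23 for miR-24 between steps (-0.17 and 0.86 without either MuSC sample), and -0.45 for miR-27b in myoblasts without MuSC runs 3 and 4.

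The number of members called moved as follows. With no scaling it was 5 in myoblasts, 1 in NSPC-Adult, 1 in MLL-Prog, 5 in MLL-LSC against LT-HSC, 4 in KSL-RbTKO, 5 in KSL-Mixed, 3 in muscle and 1 in brain. With median centring it was 1 in myoblasts, 2 in KSL-B6 against LT-HSC and 0 in KSL-RbTKO. With quantile normalization it was 1 in NSPC-Adult, 5 in KSL-ETO, 2 in KSL-RbTKO and 3 in blood. At Ct 32 it was 1 in NSPC-Adult, 0 in MLL-LSC against LT-HSC, 0 in KSL-RbTKO, 3 in blood and 5 in brain, and at Ct 38 it was 2 in KSL-RbTKO and 1 for the difference between steps. Without the floor it was 2 in KSL-RbTKO. With all assays tested it was 1 in MLL-Prog and 0 in KSL-RbTKO, in KSL-Mixed and for the difference between steps. With the replicate block it was 1 in MLL-Prog, where miR-24 had an adjusted p of 0.109, and in KSL-B6 against LT-HSC miR-27bN (3.56) lost its call. Elsewhere the replicate block changed the call of miR-27a in MLL-LSC against LT-HSC alone. Pairs were not borne out in the other 6 comparisons, in which correlations ran from -0.412 to 0.204, and the labels state pairs by replicate number for none. Leaving out single samples gave 2 to 4 members called in myoblasts, 0 to 2 in NSPC-Adult, 1 to 2 in MLL-Prog, 0 to 3 in KSL-RbTKO, 0 to 3 in KSL-Mixed and 0 to 3 for the difference between steps. The span of miR-24 over populations, 4.67, was 4.47 with median centring and 7.97 with no scaling.

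Of the values for single assays, 1041 kept direction and call, 109 lost the call, 47 gained it and 60 changed sign. Scaling shifts the median of all assays: with none it was 3.85 instead of 1.11 in myoblasts, 3.27 instead of 1.14 in KSL-B6 against LT-HSC and -2.27 instead of -0.16 in KSL-Mixed. Over all assays the number called also moved: from 78 to 51 at Ct 32 in KSL-B6 against LT-HSC, from 66 to 37 at Ct 32 and 107 with no scaling in MLL-LSC against LT-HSC, and from 54 to 34 at Ct 32 and 96 with no scaling in KSL-Mixed. In KSL-RbTKO it moved from 29 to 48 at Ct 38, 61 with no scaling, 14 with median centring and 51 without the floor. With all assays tested it was 33 instead of 59 in NSPC-P0-Exp (37 with the block), 32 instead of 54 in NSPC-Adult, 34 instead of 70 in MLL-Prog, 9 in KSL-Mixed and, by limma, 0 in KSL-RbTKO (33 at an unadjusted p below 0.05). Over the 12 populations it was 93 instead of 140 at Ct 32. Ct values near 35 limit what can be said of miR-27a in NSPC-P0, MuSC and LT-HSC and of most members in KSL-RbTKO.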
